A study of Mus musculus with 6 samples.

Results

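The genes described here are elastin (Eln) and the genes whose products build the elastic fibre around it. The set names 10 genes by their role: the elastin gene Eln, the fibrillins Fbn1 and Fbn2, the fibulins Fbln1, Fbln2, Fbln5, Efemp1 and Efemp2, and the lysyl oxidases Lox and Loxl1. Of these, 8 were measured by a probe set annotated to exactly 1 gene symbol, out of 22180 genes measured that way in all. Fbn1 and Efemp2 had no such probe set and were not analysed here. The set was drawn up around Eln because its higher value in the knockout was already known from these data, so its difference is given as a description with no test. The other 7 genes were included for their role, and their differences were tested. Where a gene has several such probe sets the brightest was taken, and each of these 8 genes had 1.

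Expression was measured on 6 Affymetrix arrays of total RNA from mouse cerebellum at postnatal day 7. The knockout group had 3 samples of genotype Math1Cre::CrebbpFl/Fl, in which Cre removes the floxed part of Crebbp, and the wild-type group had 3 samples with Math1Cre and wild-type Crebbp, so both groups carried the Cre transgene. Math1 drives Cre in the granule neuron lineage, and cells of whole cerebellum outside that lineage, such as those of vessels and meninges, are not its targets. Whether each sample was a separate animal is not stated in the labels, so the p-values reflect sample-to-sample spread that may in part be technical.

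Elastic fibres give tissues their recoil. Cells secrete tropoelastin, the product of Eln, which coacervates and is laid onto a scaffold of fibrillin microfibrils with the help of fibulins. Lysyl oxidases then oxidise lysines of tropoelastin, and the resulting cross-links make the polymer insoluble. In the brain these fibres are known mainly from the walls of larger vessels and from the meninges, and the usual makers are smooth muscle cells and fibroblasts.

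Crebbp itself read 11.46, 11.42 and 11.32 on the knockout arrays, against 11.96, 11.99 and 11.90 on the wild-type arrays (log2 values), so each array lay on the side of its label. Between arrays of a group the correlation across probe sets was 0.990 to 0.992. The 7 measured markers of cerebellar neurons averaged 10.94 to 10.96 on the knockout arrays and 10.97 to 11.05 on the wild-type arrays, above the 75th percentile of all values (8.86). Across all genes, 6.67% passed the test at an adjusted p under 0.05 (limma, Benjamini-Hochberg over 22180 genes), made up of 2.72% of all genes that were higher and 3.94% that were lower in the knockout. Of the 7 neuron markers, Atoh1 rose by 0.52, and Zic1, Zic2, Pax6 and Neurod1 fell, with log2 differences of -0.24, -0.25, -0.30 and -0.51. Barhl1 and Calb1 differed by 0.15 and 0.16 and did not pass, so the list average joins opposite differences. "Rose" and "fell" are used below for tested genes that passed. Deposited values are log2 expression values, and no detection call came with them.

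Reference promoters were available for the 2 assembly genes that rose, described below, and are shown because these 2 are the tested members that passed. Each window runs from 250 bases before to 50 bases after a RefSeq transcription start (GRCm38.p6) and is written 5′ to 3′ along the gene's strand. Capitals mark TGACG or its reverse complement CGTCA, the core of the cyclic AMP response element to which CREB, a partner of CREBBP, binds.
Fbln5 (fibulin-5), window chr12:101819070-101819369, minus strand: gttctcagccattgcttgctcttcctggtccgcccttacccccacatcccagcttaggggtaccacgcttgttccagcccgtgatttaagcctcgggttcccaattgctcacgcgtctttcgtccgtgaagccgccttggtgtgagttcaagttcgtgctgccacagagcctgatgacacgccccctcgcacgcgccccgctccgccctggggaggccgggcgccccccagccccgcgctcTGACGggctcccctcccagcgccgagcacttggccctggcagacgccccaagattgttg
Fbln5, window chr12:101818435-101818734, minus strand: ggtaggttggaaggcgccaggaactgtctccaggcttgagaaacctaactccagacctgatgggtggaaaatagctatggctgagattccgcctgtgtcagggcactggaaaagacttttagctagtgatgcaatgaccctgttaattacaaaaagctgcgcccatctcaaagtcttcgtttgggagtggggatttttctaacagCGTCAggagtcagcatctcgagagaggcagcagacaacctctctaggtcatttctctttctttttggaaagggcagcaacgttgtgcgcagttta
Efemp1 (fibulin-3), window chr11:28852955-28853254, plus strand: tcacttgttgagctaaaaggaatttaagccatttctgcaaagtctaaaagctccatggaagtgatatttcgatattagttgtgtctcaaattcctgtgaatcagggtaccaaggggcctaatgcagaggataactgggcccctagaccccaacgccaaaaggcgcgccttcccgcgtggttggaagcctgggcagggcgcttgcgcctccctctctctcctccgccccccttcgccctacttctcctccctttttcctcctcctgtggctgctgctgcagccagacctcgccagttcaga

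Each Fbln5 window held 1 copy of TGACG on either strand, and the Efemp1 window held 0. Of 32817 windows of the same length over all genes, 20.8% held at least 1 copy. The full palindrome TGACGTCA, which contains TGACG on both strands, was in 0 of the 6 windows available for measured members (Fbln1, Fbln2, Fbln5 and Efemp1) and in 1.79% of all windows. The GC box GGGCGG, searched on both strands, was in 4 of these 6 windows and in 35.6% of all windows. The TATA-type motif TATAAA, also searched on both strands, was in 0 of the 6 windows and in 13.6% of all windows. A match describes the letters and does not show that a factor binds there.

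Eln was higher in every knockout sample. It read 9.87, 9.76 and 9.63 on the 3 knockout arrays, against 8.40, 8.20 and 8.27 on the 3 wild-type arrays (log2 values). The lowest knockout value lay more than a whole log2 unit above the highest wild-type value, and the groups did not overlap. The means were 9.75 ± 0.12 in knockout and 8.29 ± 0.10 in wild type (SD, n = 3 each). The log2 difference, knockout minus wild type, was 1.46 (SE 0.08), a 2.75-fold higher level. This is the difference for which the set was drawn up.

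**Figure D1:**
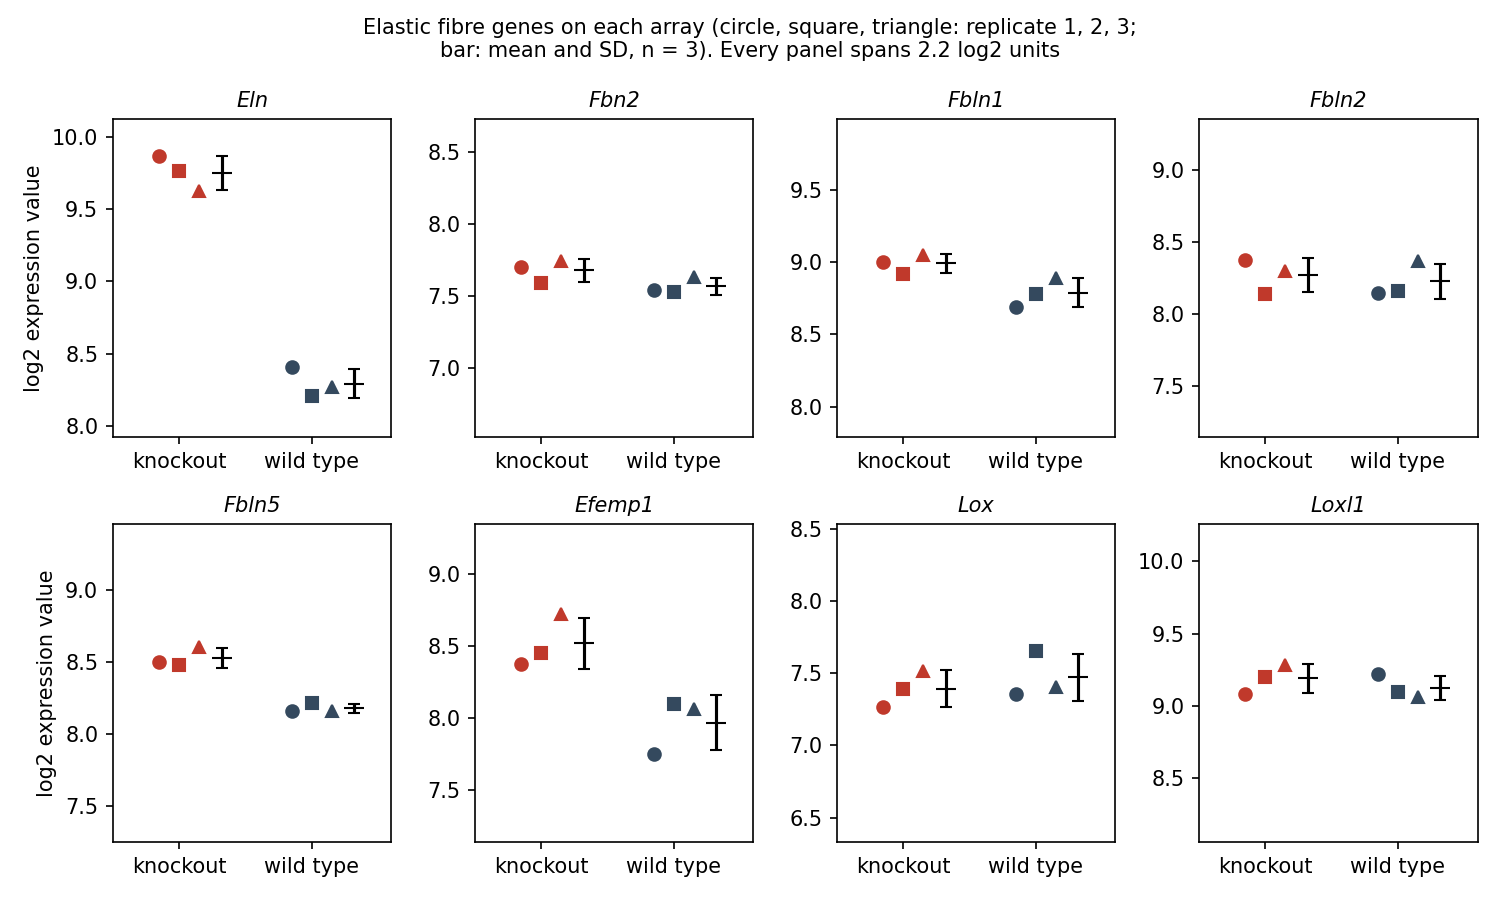
Log2 expression values (vertical axes, each spanning the same range) of the 8 measured elastic fibre genes on the 3 knockout arrays (red, left) and the 3 wild-type arrays (dark blue, right), with group mean and SD. Eln stood at 9.63 to 9.87 in knockout against 8.20 to 8.40 in wild type. Fbln5 and Efemp1 were separated by less, and Fbn2, Fbln2, Lox and Loxl1 overlapped between the groups.

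Among the 7 tested assembly genes, 2 rose in the knockout, 0 fell and 5 did not pass, where 2.72% of all genes rose and 3.94% fell. Both genes that rose were fibulins, short extracellular glycoproteins with calcium-binding EGF repeats. The median log2 difference of the 7 genes was 0.11, beside -0.003 over all genes tested. Their differences ran from -0.08 to 0.55, each well under that of Eln, which unlike them was chosen for its difference.

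Fbln5 encodes fibulin-5, which binds tropoelastin and cell-surface integrins and places elastin onto microfibrils. It read 8.50, 8.48 and 8.60 on the knockout arrays, against 8.16, 8.22 and 8.16 on the wild-type arrays. The groups did not overlap, and the wild-type arrays lay close together. The log2 difference was 0.35 (SE 0.06, limma adjusted p = 0.00988), a 1.27-fold higher level (95% interval 1.16 to 1.40). The call was lost without wild-type replicate 1, with a difference of 0.34 and an adjusted p of 0.0515. Over 17 alternative fits the difference stayed between 0.26 and 0.37 and the adjusted p ran from 0.0072 to 0.316, with 13 fits past the threshold.

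Efemp1 encodes fibulin-3, a close relative of fibulin-5 found in basement membranes and connective tissue. It read 8.38, 8.45 and 8.72 on the knockout arrays, against 7.75, 8.09 and 8.06 on the wild-type arrays. The groups did not overlap, but the array values spread more widely than those of Fbln5, with wild-type replicate 1 low and knockout replicate 3 high. The log2 difference was 0.55 (SE 0.11, limma adjusted p = 0.0188), a 1.46-fold higher level (95% interval 1.23 to 1.74). Without wild-type replicate 1 the difference was 0.44 and the adjusted p 0.0695. The call was also lost without a trend in the prior variance (limma adjusted p = 0.0751), with the difference unchanged. Over the 17 alternative fits it ran from 0.25 to 0.62 with an adjusted p between 0.0054 and 0.412, and 13 fits passed.

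The other fibulins did not pass. Fbln1, a fibulin of elastic fibres and basement membranes, read 9.001, 8.92 and 9.05 on the knockout arrays, against 8.69, 8.78 and 8.89 on the wild-type arrays. The groups were apart by a narrow margin, as were those of 25% of all genes, and the log2 difference of 0.20 (SE 0.07) had a limma adjusted p of 0.111. Fbln2, which binds fibrillin and basement membrane proteins, read 8.37, 8.14 and 8.30 on the knockout arrays, against 8.15, 8.16 and 8.36 on the wild-type arrays. Its groups overlapped throughout, with a log2 difference of 0.05 and a 95% confidence interval of -0.14 to 0.23 (limma adjusted p = 0.832).

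Of the microfibril scaffold, Fbn2 was measured. It encodes fibrillin-2, the fibrillin made mainly in development. It read 7.70, 7.59 and 7.75 on the knockout arrays, against 7.54, 7.53 and 7.63 on the wild-type arrays. The groups overlapped, and the log2 difference of 0.11 had a 95% confidence interval of -0.05 to 0.27 (limma adjusted p = 0.463).

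Neither cross-linking enzyme passed. Lox, which encodes lysyl oxidase, read 7.27, 7.39 and 7.52 on the knockout arrays, against 7.35, 7.66 and 7.40 on the wild-type arrays. Its log2 difference was -0.08, with a 95% confidence interval of -0.30 to 0.15 (limma adjusted p = 0.745). Loxl1, which encodes the lysyl oxidase that fibulin-5 brings to elastin, read 9.08, 9.20 and 9.28 on the knockout arrays, against 9.22, 9.10 and 9.06 on the wild-type arrays. Its log2 difference was 0.07, with a 95% confidence interval of -0.09 to 0.22 (limma adjusted p = 0.674). Both intervals lay far below the 1.46 of Eln, which was chosen for its difference. They do not show that the enzymes were equal between the groups.

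**Figure D2:**
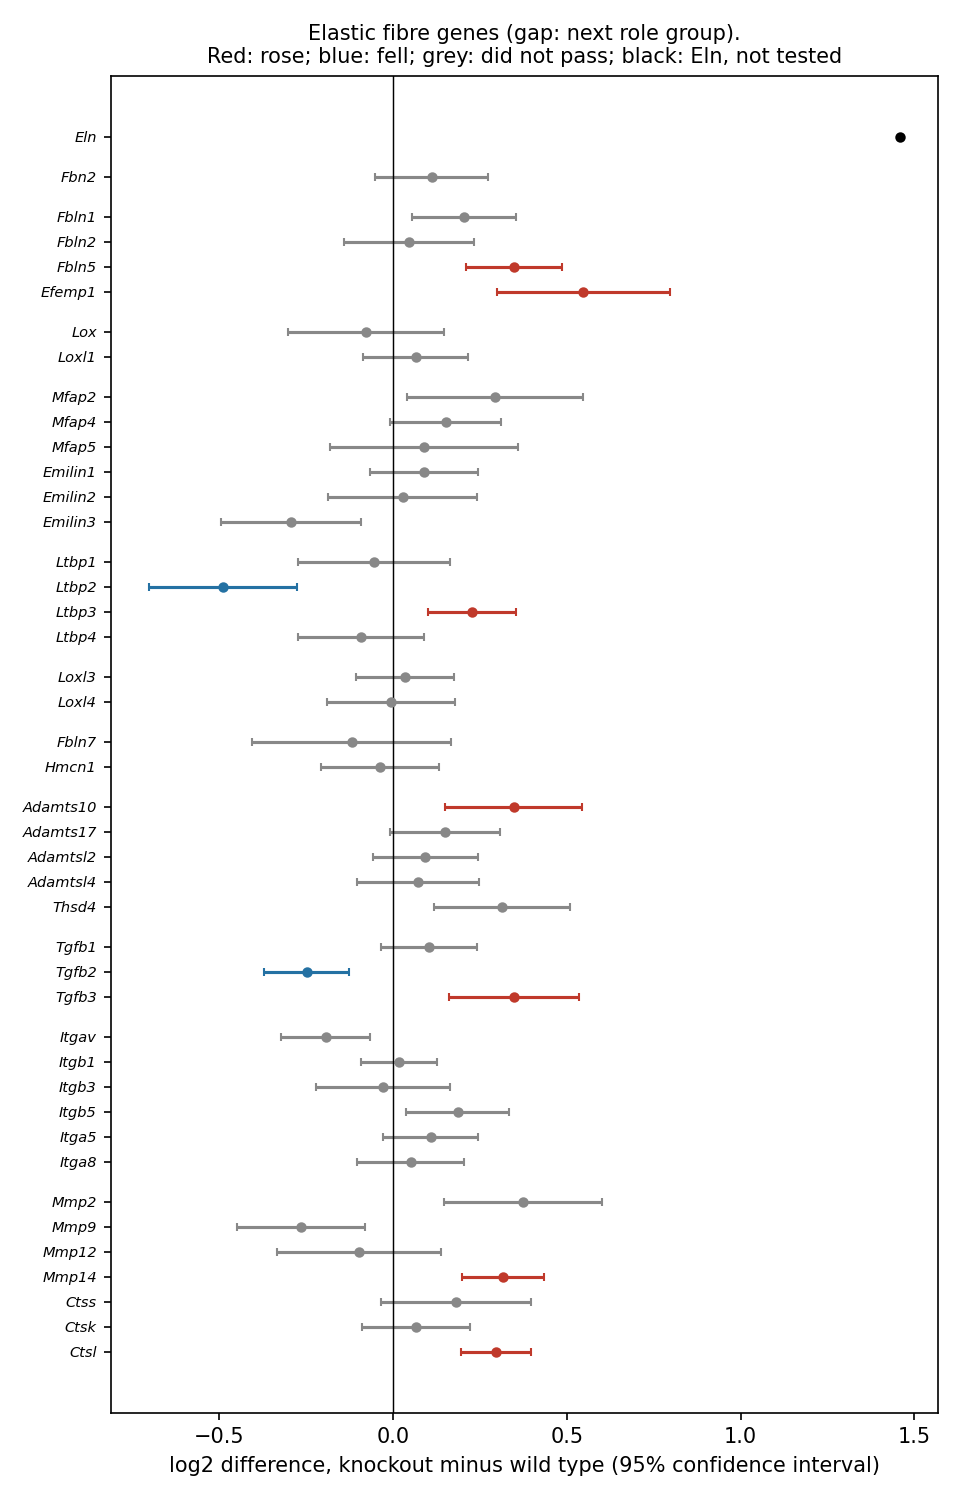
Log2 differences, knockout minus wild type (horizontal axis), with 95% confidence intervals (none for Eln) that are not adjusted for the number of genes, for the 8 measured members and 35 other elastic fibre genes grouped by role. Eln (black, 1.46), which was chosen for its difference, lay above the other genes, which ran from -0.49 (Ltbp2) to 0.55 (Efemp1). Red points rose, blue points fell and grey points did not pass.

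A wider list of 37 genes that act on elastic fibres or microfibrils was taken beside the members, and 35 were measured. Of these, 5 rose, 2 fell and 28 did not pass, where 2.72% of all genes rose and 3.94% fell. The list's median log2 difference was 0.07, beside -0.003 over all genes. The genes that passed lay in 4 role groups: the latent TGF-beta binding proteins, the TGF-beta ligands, the ADAMTS family and the elastin-degrading enzymes. The fit without the 3 arrays on which Ttr, described below, lay above 10 left 1 knockout array, and its calls are not counted here. With Ogn, also described below, as a covariate, 1 of the 35 passed (Ctsl). Ltbp2, Tgfb2, Ctsl and Mmp14 then differed by more than in the main fit, at -0.62, -0.29, 0.36 and 0.37. Ltbp3, Tgfb3 and Adamts10 differed by less, at 0.14, 0.20 and 0.11. Over all genes but Ogn itself, 216 passed with this covariate, against 1479 of 22180 in the main fit.

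Among 4 latent TGF-beta binding proteins, microfibril proteins that hold or flank stored TGF-beta, 1 rose and 1 fell (2.72% and 3.94% of all genes). Ltbp2 read 7.80, 7.89 and 7.93 on the knockout arrays, against 8.18, 8.57 and 8.33 on the wild-type arrays, so every knockout array was lower. Its log2 difference was -0.49 (SE 0.10, limma adjusted p = 0.0157). It was -0.45 without knockout replicate 1, with an adjusted p of 0.0576, and over 17 alternatives the adjusted p ran from 0.0095 to 0.0856. Ltbp3 rose by 0.23 (SE 0.06, limma adjusted p = 0.042), but lost its call whichever array was left out, with differences of 0.19 to 0.25 in those fits. With Ogn as a covariate it differed by 0.14 (adjusted p = 0.509, within a range of 0.0345 to 0.549 over 17 alternatives).

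Of 3 TGF-beta ligands, which microfibrils store in latent form, 1 rose and 1 fell (2.72% and 3.94% of all genes). Tgfb3 read 7.97, 7.87 and 8.16 on the knockout arrays, against 7.66, 7.69 and 7.60 on the wild-type arrays. It rose by 0.35 (SE 0.08, limma adjusted p = 0.0379). Tgfb2 read 9.46, 9.36 and 9.47 on the knockout arrays, against 9.64, 9.75 and 9.65 on the wild-type arrays. It fell by 0.25 on the log2 scale (SE 0.05, limma adjusted p = 0.027). Tgfb1 had a difference of 0.10 and did not pass (limma adjusted p = 0.404). Both calls were lost in 5 of the 6 fits with an array left out: that of Tgfb3 in all but the fit without knockout replicate 2, and that of Tgfb2 in all but the fit without knockout replicate 3. The differences in the 6 fits stayed similar, at 0.27 to 0.41 for Tgfb3 and -0.27 to -0.21 for Tgfb2. With Ogn as a covariate Tgfb3 differed by 0.20 (adjusted p = 0.543), and without the arrays with Ttr above 10 by 0.22 (adjusted p = 0.551), within a range of 0.0251 to 0.551 over 17 alternatives.

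Of 7 elastin-degrading enzymes, 2 rose and 0 fell (2.72% and 3.94% of all genes). Ctsl, a lysosomal cysteine protease that can cut elastin, read 10.93, 10.94 and 10.85 on the knockout arrays, against 10.62, 10.64 and 10.58 on the wild-type arrays. The groups did not overlap, and the log2 difference was 0.30 (SE 0.05, limma adjusted p = 0.00509). Mmp14, a membrane-bound metalloproteinase that activates pro-MMP2, read 10.51, 10.62 and 10.48 on the knockout arrays, against 10.22, 10.17 and 10.27 on the wild-type arrays. Its log2 difference was 0.32 (SE 0.05, limma adjusted p = 0.00747). Ctsl and Mmp14 passed whichever single array was left out. Over 17 alternatives their adjusted p ran from 0.002 to 0.146 and from 0.0034 to 0.0888. Mmp2 had a larger difference, 0.38, that did not pass (SE 0.10, limma adjusted p = 0.0585).

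In the ADAMTS family that binds microfibrils, Adamts10 rose by 0.35 (SE 0.09, limma adjusted p = 0.0466) and 4 genes did not pass, where 2.72% of all genes rose. Without knockout replicate 3 its difference was 0.24, with an adjusted p of 0.0637, and it passed in 1 of the 6 fits with an array left out. With Ogn as a covariate the difference was 0.11 (adjusted p = 0.695), and over 17 alternatives the adjusted p ran from 0.0392 to 0.695. In 4 role groups 0 measured genes passed, where 6.67% of all genes did. Of 6 microfibril-associated proteins, 5 read higher and 1 lower in knockout, with a median log2 difference of 0.09. Emilin3 at -0.29 (limma adjusted p = 0.091) and Mfap2 at 0.29 (limma adjusted p = 0.175), named after its value was seen, differed most, by nearly the same amount in opposite directions. In the other 3 groups the greatest absolute differences were those of Itgav, an integrin subunit that binds fibrillins and latent TGF-beta, at -0.19 among 6 integrin subunits (adjusted p = 0.0791), Fbln7 at -0.12 among 2 further fibulins (adjusted p = 0.688) and Loxl3 at 0.03 among 2 further lysyl oxidases (adjusted p = 0.834). Loxl2 and the tropoelastin chaperone gene Fkbp10 had no probe set of exactly 1 symbol and were not analysed here.

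Eln was set beside Ttr, the transthyretin gene that marks choroid plexus epithelium, and Ogn, which encodes osteoglycin and marks meningeal fibroblasts. Ttr read 13.77, 9.19 and 13.92 on the knockout arrays, against 12.30, 8.08 and 8.91 on the wild-type arrays. The groups overlapped, and 2 knockout arrays and 1 wild-type array lay above 10. Ogn read 8.58, 8.74 and 9.53 on the knockout arrays, against 8.07, 8.33 and 8.38 on the wild-type arrays. Its groups did not overlap, and its log2 difference of 0.69 did not pass (SE 0.20, limma adjusted p = 0.0762). The Ogn difference was 0.40 without knockout replicate 3 and 0.87 without knockout replicate 1. It passed in 2 of 16 alternative fits, the one without knockout replicate 1 (limma adjusted p = 0.0433) and the one with a replicate block (0.0165). In whole tissue, more cells of a type and more RNA per cell cannot be told apart.

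Within the knockout group Eln was highest on replicate 1 (9.87), where Ttr (13.77) was near its highest value and Ogn (8.58) was lowest. Knockout replicate 2 had the lowest Ttr of the 3, 9.19, close to that of wild-type replicate 3 (8.91) and well below that of wild-type replicate 1 (12.30), and its Eln value was 9.76. Knockout replicate 3 had the highest Ttr and Ogn and the lowest Eln of the 3, 9.63. The array with high Ttr among wild type, replicate 1, read 8.40 for Eln, the highest wild-type value (the others read 8.20 and 8.27). Whether Eln follows Ttr or Ogn within a group was not tested. Without the 3 arrays with Ttr above 10, a comparison of 1 knockout with 2 wild-type arrays, the Eln difference was 1.53, and with Ttr as a covariate it was 1.42. With Ogn as a covariate it was 1.64. Over 14 alternatives it ran from 1.40 to 1.64.

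The differences of the 2 fibulins that rose were smaller with Ogn as a covariate. Efemp1 and Ogn were both lowest on wild-type replicate 1 and highest on knockout replicate 3, and their order within the knockout group was the same. With Ogn as a covariate, the Efemp1 difference was 0.25 (SE 0.11, limma adjusted p = 0.412) and that of Fbln5 0.26 (SE 0.09, limma adjusted p = 0.243), and neither passed. Ogn differs between the groups, so a fit with this covariate also takes up part of the group difference. Without the arrays with Ttr above 10, Efemp1 differed by 0.37 (adjusted p = 0.18) and Fbln5 by 0.29 (adjusted p = 0.316). With Ttr as a covariate Efemp1 passed (0.60, adjusted p = 0.0487) and Fbln5 did not (0.34, adjusted p = 0.051).

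**Figure D3:**
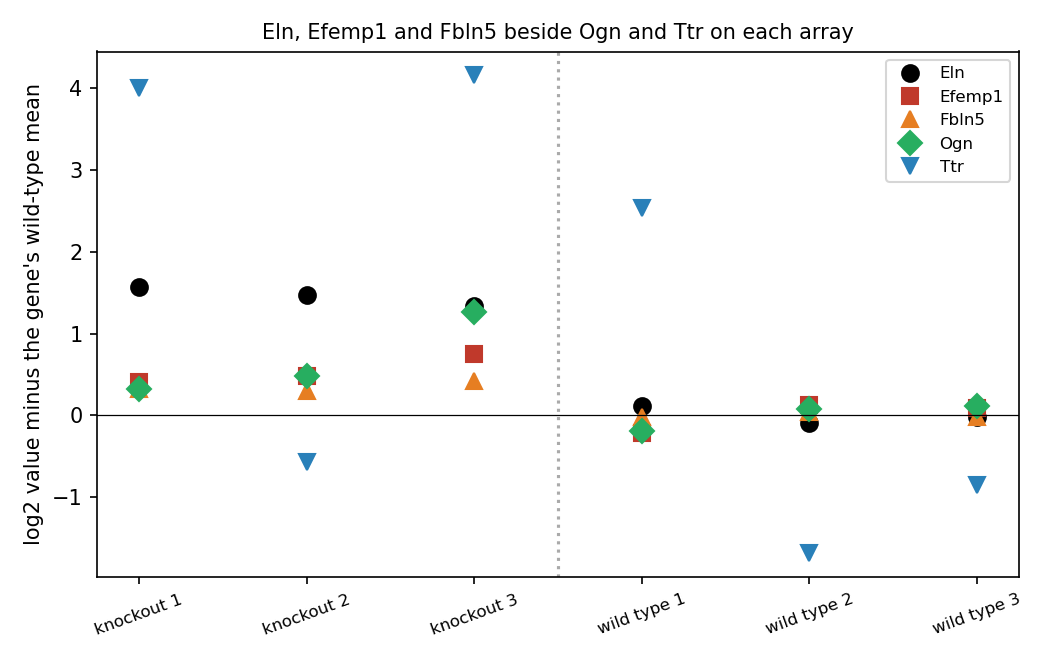
Log2 value of each gene minus its own wild-type mean (vertical axis) on each of the 6 arrays, for Eln, Efemp1, Fbln5, Ogn and Ttr. Eln was similarly high on all 3 knockout arrays. Ttr was high on 2 knockout arrays and 1 wild-type array, and Ogn was highest on knockout replicate 3.

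Marker lists were also read for meningeal fibroblasts, mural cells, endothelium and choroid plexus. Whole-tissue arrays do not show which cells, in or outside the granule neuron lineage, carry the elastic fibre genes. The 10 markers of meningeal fibroblasts averaged 8.80, 8.91 and 9.32 on the knockout arrays, against 8.70, 8.77 and 8.80 on the wild-type arrays, and 0 of 10 passed, although 6 of 10 had groups that did not overlap (25% of all genes). The 10 markers of mural cells and smooth muscle averaged 8.29 to 8.35 on the knockout arrays and 8.33 to 8.40 on the wild-type arrays, and 0 of 10 passed. Their differences ran from -0.20 to 0.04. The 8 endothelial markers averaged 8.56 to 8.66 on the knockout arrays and 8.51 to 8.66 on the wild-type arrays, and 0 of 8 passed. Of the endothelial markers, 1 had a mean below the 25th percentile of all values (6.02). The 7 measured choroid plexus markers averaged 7.50 to 9.88 on the knockout arrays and 7.40 to 8.26 on the wild-type arrays, and 0 of 7 passed. All 7 had a higher mean in knockout, with a median log2 difference of 0.98, though the groups of each overlapped. Across all genes 6.67% passed, so a count of 0 in lists this short does not show that the groups were equal. The part of meningeal or choroid plexus tissue in the fibulin differences was not tested beyond the fits above.

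Of the 6 measured genes nearest to Eln on its chromosome, 0 rose and 1 fell, where 2.72% of all genes rose and 3.94% fell. On one side the 3 nearest measured genes were Gm10369, Limk1 and Eif4h, and on the other Tmem270, Cldn13 and Mettl27. Limk1, which encodes a kinase that inactivates the actin-severing protein cofilin, was the one that fell. It read 10.22, 10.29 and 10.15 on the knockout arrays, against 10.75, 10.62 and 10.53 on the wild-type arrays, so the groups did not overlap. Its log2 difference was -0.41 (SE 0.06, limma adjusted p = 0.00504). Limk1 passed in 15 of 17 alternatives, with an adjusted p of 0.0032 to 0.242, and lost its call without the arrays with Ttr above 10 and with Ogn as a covariate, where it differed by -0.28 and -0.30. Gm10369, an lncRNA gene that lies within the span of Limk1, had a difference of -0.29 that did not pass (limma adjusted p = 0.0981), and which strand its probes read is not stated. The translation factor gene Eif4h differed by -0.01, and the 3 genes on the other side by 0.09, -0.12 and 0.12, with limma adjusted p-values of 0.474 to 0.969 for these 4 genes.

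**Figure D4:**
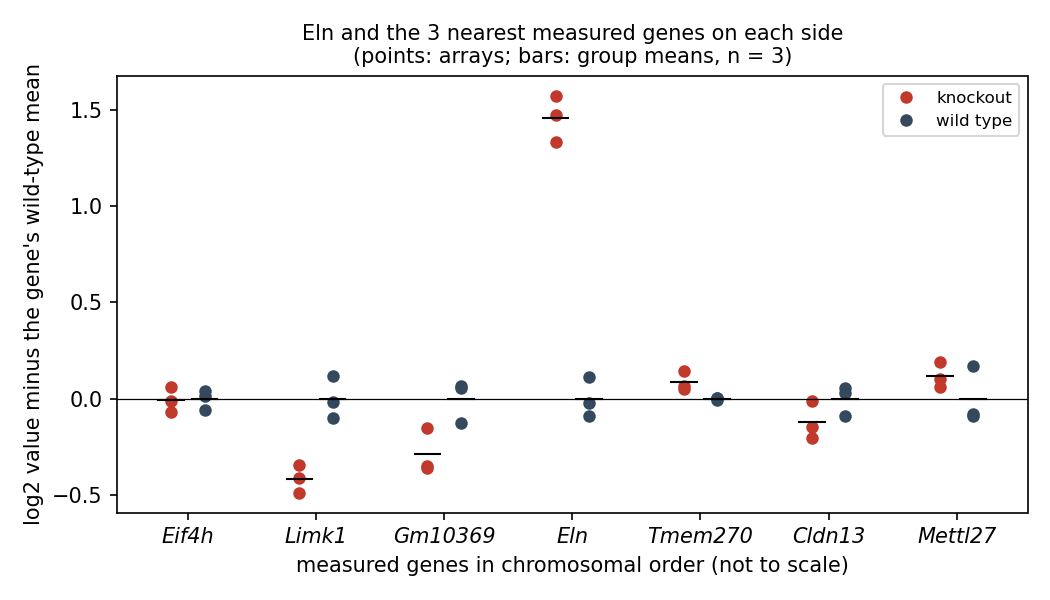
Log2 value minus each gene's wild-type mean (vertical axis) for Eln and the 3 nearest measured genes on each side, in chromosomal order, on the knockout arrays (red, left) and the wild-type arrays (dark blue, right), with bars for group means. Eln was higher by 1.46 in knockout, while its neighbour Limk1 was lower by 0.41.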

How the data were processed

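Each deposited value is the log2 expression of a probe set on an array. Per the submitters' processing notes, RMA and oligo were used; the array's genome build was not stated. No normalization was added, since the array medians lay between 7.25 and 7.29. Of 41345 probe sets, GEO's platform annotation gave 1 symbol to 23521, several to 1814 and none to 16010. The probe set with the greatest mean stood for each gene (22180 genes). RefSeq gene tables (GRCm38.p6) gave gene order and promoters only.

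The test was limma 3.58.1 under R 4.3.3 (lmFit, eBayes with a trend, two-sided, Benjamini-Hochberg over all 22180 genes, threshold 0.05). The fit was tested on simulated data. Python 3.11.15, pandas 2.3.3 and matplotlib 3.10.9 handled tables and plots. The members and lists were chosen with earlier results of these data known. Named genes are the members, the genes of the wider list that passed or, in a role group without any, the one with the greatest difference, the 3 nearest neighbours of Eln on each side and the 4 genes with the profile nearest to that of Eln. Precision is limited by the 3 arrays in each group. Alternatives were other prior variances, scalings, filters, weights, a replicate block, thresholds, probe sets, arrays left out, and Ttr or Ogn as covariates.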

Additional observations from a re-analysis of the deposited data

How the results depend on the processing

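The Eln difference, for which the set was drawn up, was 1.40 to 1.52 with 1 array left out and moved beyond the spread between replicates only with Ogn as a covariate (1.64). With 1 array left out, 0 to 2 assembly genes, 3 to 5 genes of the wider list and 565 to 1276 of all genes passed, against 2, 7 and 1479 with all arrays. The assembly genes, the wider list and all genes gave 1, 1 and 494 calls without a trend in the prior variance, 1, 2 and 491 at an adjusted p under 0.01, and 2, 12 and 2313 under 0.10. They gave 0, 0 and 236 without the arrays with Ttr above 10 (1 knockout array, assumed to vary like the others), 1, 2 and 695 with Ttr as a covariate, and 0, 1 and 216 with Ogn as a covariate. Of the assembly genes and the wider list, only Fbln5 (limma adjusted p = 0.0384) and Ctsl (0.0491) passed without a trend. The cause of these changes was not tested. The fits with arrays left out or a covariate added also have fewer residual degrees of freedom. A gene used as a covariate was left out of its own fit. Over all genes, deviations from the group mean showed little correlation between samples with the same replicate number (0.01, 0.03 and -0.13). This does not exclude a pairing for single genes. With the replicate number as a block, 2 assembly genes, 7 of the wider list and 1801 of all genes passed. Ogn and Ttr, which did not pass in the main fit, passed in this one (limma adjusted p = 0.0165 and 0.0442). Of 525 single-gene alternatives, 62 lost a call and 5 gained one. A change of direction was counted only for genes that passed in the main or the alternative fit, and there were 0. Genes that did not pass could change direction, as did Fbln2 (-0.12 to 0.12), Lox (-0.26 to 0.01) and Loxl1 (-0.01 to 0.12).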

Other observations

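The 4 genes whose values over the 6 arrays, each centred on its own mean, lay nearest to those of Eln were Ly86, Gm14322, Cyp4f13 and Fam205a2, with root mean square distances of 0.22, 0.24, 0.25 and 0.26 log2 units. None of them is an elastic fibre gene. Ly86, an innate immune gene, read 9.76, 9.90 and 9.46 on the knockout arrays, against 8.73, 8.51 and 8.69 on the wild-type arrays. Cyp4f13, a cytochrome P450 gene, read 8.25, 8.53 and 8.65 on the knockout arrays, against 7.43, 7.33 and 7.32 on the wild-type arrays. Gm14322 and Fam205a2 averaged 8.41 and 8.55 in knockout, against 7.25 and 7.57 in wild type. Fam205a2 had 5 probe sets, which may share probes with near-identical copies. Likeness to Eln here is mostly the shared difference between the groups, since a gene without one cannot lie near it.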
